A study of Mus musculus with 31 samples.

Results

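Ribosome footprints were compared between the cortex of Fmr1-deficient mice, a model of fragile X syndrome that the labels call FXS, and the cortex of wild-type mice (WT). The comparison rests on 9 footprint libraries of the 31 libraries in the series, 5 of FXS and 4 of WT, chosen by the assay and genotype in their labels. Mice were between postnatal days 29 and 34 in all groups. The other 6 footprint libraries, 3 of Rps6kb1-deficient mice (S6K1) and 3 of mice lacking both genes (DKO), entered the same model, where they share its estimates of spread and batch, and gave a second contrast for the loss of Fmr1. The 16 mRNA libraries, 4 for each of the 4 genotypes, gave the transcript level. The strain, the sex, the Fmr1 and Rps6kb1 alleles and the number of mice behind a library are not given in the sources used here. Nothing states that libraries came from separate mice, so the p-values measure the spread between these libraries. Bulk cortex was lysed, and a smaller number of cells of a type and less RNA per cell cannot be told apart in any result below.

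Ribosome profiling sequences the short pieces of mRNA that a translating ribosome shields from nuclease, so a gene's footprint count reflects both how much mRNA there is and how densely it is translated. Fmr1 encodes FMRP, an RNA-binding protein of neurons and glia that associates with translating ribosomes on long neuronal mRNAs. Its loss causes fragile X syndrome. Oligodendrocytes wrap cortical axons in myelin during the weeks after birth, and their maturation is driven by transcription factors such as MYRF and SOX10, which switch on genes for myelin membrane proteins and for the enzymes that make myelin lipids.

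Footprint libraries held 19.8 to 34.9 M counts in WT and 16.8 to 30.3 M in FXS. Markers of excitatory cortical neurons, such as the vesicular glutamate transporter gene Slc17a7, were present in all of them, summing over 15 genes to 4472 to 5271 CPM in WT and 3853 to 5566 CPM in FXS. Here CPM is a count divided by the library's total in M over the genes tested, scaled by edgeR's TMM factors. Batch 2 of the labels held WT replicate 1 and FXS replicates 1 and 2, batch 3 held WT replicate 2 and FXS replicate 3, and batch 4 held WT replicates 3 and 4 and FXS replicates 4 and 5. After each library was centred on its genotype, the 7 pairs of an FXS and a WT library from 1 batch had a median correlation across genes of 0.27, and all 7 were above 0.1. The 13 pairs from different batches had a median of -0.19, with 0 above 0.1. Centring pushes these pairs below 0 once the pairs from 1 batch lie above it, so they add no separate evidence. Batch was a term of the model. Some libraries stood apart in single gene groups. FXS replicate 1 held 1032 CPM of the 13 mural and meningeal markers, against 102.7 to 252 in the other 8. WT replicate 2 held the most footprints of myelin sheath genes, WT replicate 4 of immediate early genes, and WT replicate 1 of the FMRP target list.

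Of 13953 genes tested, 23 passed a Benjamini-Hochberg adjusted p of 0.05 with edgeR's quasi-likelihood test (0.165% of the genes tested). Of these, 21 were lower in FXS (0.151%) and 2 were higher (0.0143%). The lower genes were Fmr1 itself, 8 genes of mature oligodendrocytes (among them Cnp, Gjc3, Myrf, Sept4, Fa2h, Ugt8a and Ndrg1) and 12 others (among them Igsf9b, Atmin, Zfpm1, Tnnc1, Plxnb3, Tprn, Itgb4, Heg1, Prickle1, Tnrc6c and Serpinb8). The higher ones were Acvr2a and Cd99l2. Besides Fmr1, the changes were between 0.30 and 1.01 in size on the log2 scale. At an unadjusted p under 0.05 there were 806 lower genes (5.78%) and 571 higher genes (4.09%). The 3 called genes nearest to the threshold were Prickle1, Tnrc6c and Serpinb8, at adjusted p of 0.0478, 0.0486 and 0.0486, and the 3 just outside it were Ttyh2 and Mcam at 0.0592 and D7Ertd443e at 0.0603. All 23 called genes kept their sign in each of 18 other models, but the call itself was less firm. Without FXS replicate 5 only Fmr1 was called. When edgeR fitted only the FXS and WT libraries, 2 genes were called, Fmr1 and Igsf9b, with 0 in the oligodendrocyte lists. In that fit Cnp and Myrf stood at an adjusted p of 0.0506, Gjc3 at 0.104 and Ndrg1 at 0.110.

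**Figure D1:**
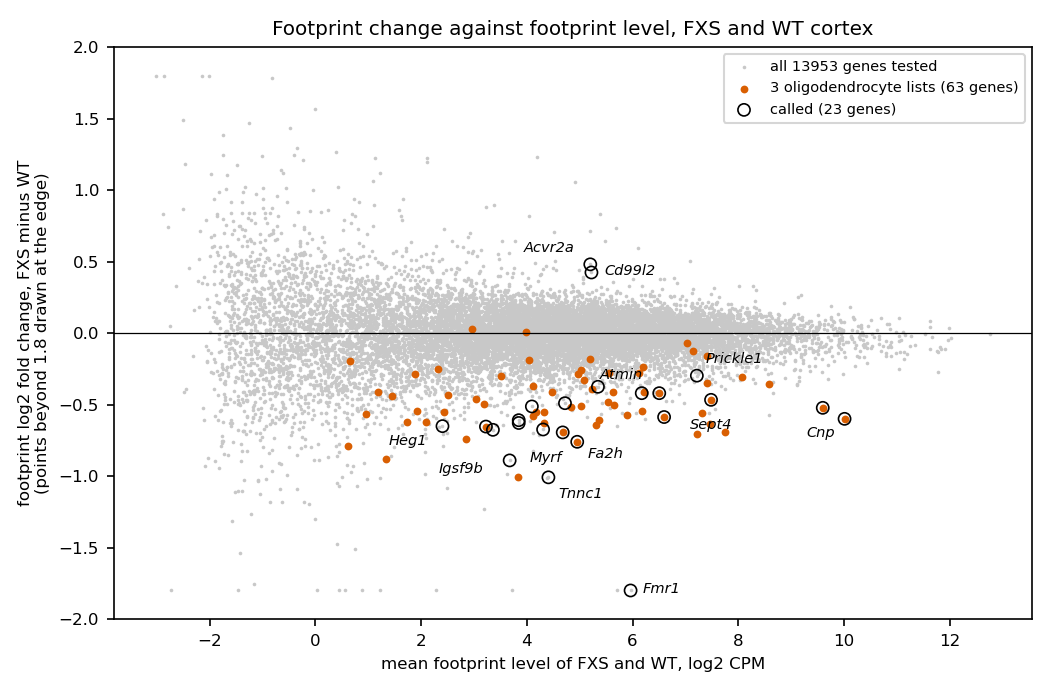
Each point is 1 of 13953 genes, with the mean footprint level of FXS and WT (log2 CPM) on the x axis and the fitted log2 fold change, FXS minus WT, on the y axis, where values beyond 1.8 are drawn at the edge. Orange points are the 63 tested genes of the 3 oligodendrocyte lists, of which 61 lie below 0, and circles mark the 23 called genes.

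Fmr1 (chrX:68678536-68717963 in mm10), the gene that FXS mice lack, was read first. Its footprints stood at 105, 118, 138 and 106 CPM in WT replicates 1 to 4 and at 8.20, 7.53, 8.68, 7.03 and 7.81 CPM in FXS replicates 1 to 5 (values are given in this replicate order throughout). Every FXS library lay far below every WT library, and the difference was -3.88 ± 0.103 on the log2 scale (log2 fold change ± SE; adjusted p 4.00e-12), a fall of 93.2%. Fmr1 footprints were therefore still counted in all 5 FXS libraries. The mRNA fell less, by 2.05, and the difference between the footprint and mRNA changes was itself called (adjusted p 1.61e-07). The other 21 members of a list of Fmr1 relatives and FMRP partners held 0 called genes. The list's median log2 fold change was 0.02, and its member with the smallest p besides Fmr1 was Pura, a single-stranded nucleic acid binding protein, at -0.29 ± 0.0995 (adjusted p 0.323). Rps6kb1, which is intact in both groups, stood at 28.9 ± 2.48 CPM (SD, n = 4) in WT and 32.5 ± 2.72 CPM (SD, n = 5) in FXS, and the change of 0.18 ± 0.0989 was not called (adjusted p 0.572).

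Genes of the myelin sheath were lower in footprints of FXS. All 18 listed sheath proteins were measured and all 18 were lower, with a median log2 fold change of -0.55, whereas 7023 of all 13953 genes were lower and their median was 0.00. Of the 18, 17 had an unadjusted p under 0.05, against 5.78% of all genes on the lower side. Called were 3, among them Cnp and Gjc3. Summed over the list, the footprints were 3414, 4647, 3193 and 3189 CPM in WT and 2628, 3122, 3058, 2094 and 2059.9 CPM in FXS. The highest FXS library lay just under the lowest WT library, and WT replicate 2 stood above all others. Without WT replicate 2 the median was -0.45 and 17 of 18 were lower. The list holds markers of 1 cell type, so its members share their source.

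Cnp encodes the phosphodiesterase CNPase of uncompacted myelin. It had 922, 999.9, 849.6 and 849 CPM in WT and 698, 758, 598, 599.9 and 575 CPM in FXS. The groups did not overlap, the highest FXS library being replicate 2 at 758 CPM, and Cnp changed by -0.52 ± 0.0668 (adjusted p 0.00785), a fall of 30.4%. Gjc3, a connexin of oligodendrocytes, had 11.5, 13.999, 10.01 and 9.28 CPM in WT and 9.58, 8.27, 9.37, 5.27 and 5.01 CPM in FXS, and changed by -0.65 ± 0.113 (adjusted p 0.0323). FXS replicates 4 and 5 were the 2 lowest for Gjc3, while FXS replicates 1 and 3 exceeded WT replicate 4. Cldn11, the tight junction protein of myelin, stood at -0.71 ± 0.156 (adjusted p 0.134), and Omg, a glycoprotein of the myelin surface, was the 1 member with an unadjusted p above 0.05, at -0.07.

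Enzymes and transporters of the mature oligodendrocyte showed the same direction. In a second list of 35 such genes all 35 were lower, with a median of -0.46. An unadjusted p under 0.05 was reached by 27 of them, against 5.78% of all genes on the lower side. Called were Fa2h, Ugt8a, Sept4 and Ndrg1. Fa2h hydroxylates the fatty acids of myelin galactolipids, and its footprints were 33.6, 53.2, 32.3 and 36.4 CPM in WT against 26.6, 24.5, 23.1, 20.7 and 20.5 CPM in FXS. No FXS library reached the lowest WT library, and Fa2h changed by -0.76 ± 0.120 (adjusted p 0.0208). Ugt8a adds the galactose to those lipids and had 109, 167, 82.3 and 100.02 CPM in WT and 85.7, 90.5, 106, 56.9 and 55.5 CPM in FXS. Its groups overlapped, with WT replicate 3 below FXS replicates 1 to 3, and the change was -0.59 ± 0.0933 (adjusted p 0.0208). Sept4 encodes a septin that scaffolds the myelin membrane and had 202, 224, 213 and 193 CPM in WT and 155, 136, 173, 145 and 142 CPM in FXS, with no overlap and a change of -0.47 ± 0.0671 (adjusted p 0.0127). Ndrg1, whose loss causes a demyelinating neuropathy, fell by 0.42 on the log2 scale (adjusted p 0.0323), from 104 ± 7.11 CPM (SD, n = 4) to 77.7 ± 5.82 CPM (SD, n = 5), without overlap. Members that were not called included Hapln2, a link protein of the nodes of Ranvier, at -0.88, Trf, the iron carrier transferrin, at -0.63, Aspa, which breaks down N-acetylaspartate, at -0.51, and Sirt2, a deacetylase, at -0.12. Summed over the 35 genes, footprints were 2063, 2690.0, 2058 and 1835 CPM in WT and 1702, 1936, 1858, 1454 and 1432 CPM in FXS, so FXS replicates 2 and 3 lay above the lowest WT library.

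Of the 10 oligodendrocyte transcription factors tested, 8 were lower, with a median of -0.28. Of these 8, 6 had an unadjusted p under 0.05, against 5.78% of all genes on the lower side. Myrf, which activates myelin genes, had 34.1, 36.95, 27.8 and 25.5 CPM in WT and 22.5, 25.2, 17.5, 18.4 and 16.9 CPM in FXS. FXS replicate 2 came just under WT replicate 4, and Myrf changed by -0.69 ± 0.0988 (adjusted p 0.0127). Sox10 stood at -0.48 ± 0.122 (adjusted p 0.166) and Olig2, needed to specify the lineage, at -0.63 ± 0.183 (adjusted p 0.249). Sox6 and Tcf7l2 were the 2 that were not lower, at 0.01 and 0.03. Over the 3 lists together, 61 of 63 tested genes were lower and 15 had every FXS library below every WT library, an arrangement seen in 151 of all genes tested (1.08%). The median of the transcription factors was -0.42 without WT replicate 1, -0.21 without WT replicate 2 or FXS replicate 3, and -0.17 without batch 3. Within batches 2, 3 and 4 the transcription factor median was -0.17, -0.76 and -0.22. Markers of precursors were lower in 10 of 12 cases with a median of -0.19, 0 calls and 2 genes at an unadjusted p under 0.05. Their median was -0.09 without WT replicate 2 (8 of 12 lower), -0.32 without WT replicate 1 and -0.05 without batch 3. Within batches 2, 3 and 4 it was 0.12, -0.48 and -0.18, with 4, 12 and 8 of 12 lower. Members included Pdgfra, the growth factor receptor of these cells, at -0.20, and Enpp6, which marks cells starting to differentiate, at -0.64 ± 0.186 (adjusted p 0.243).

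**Figure D2:**
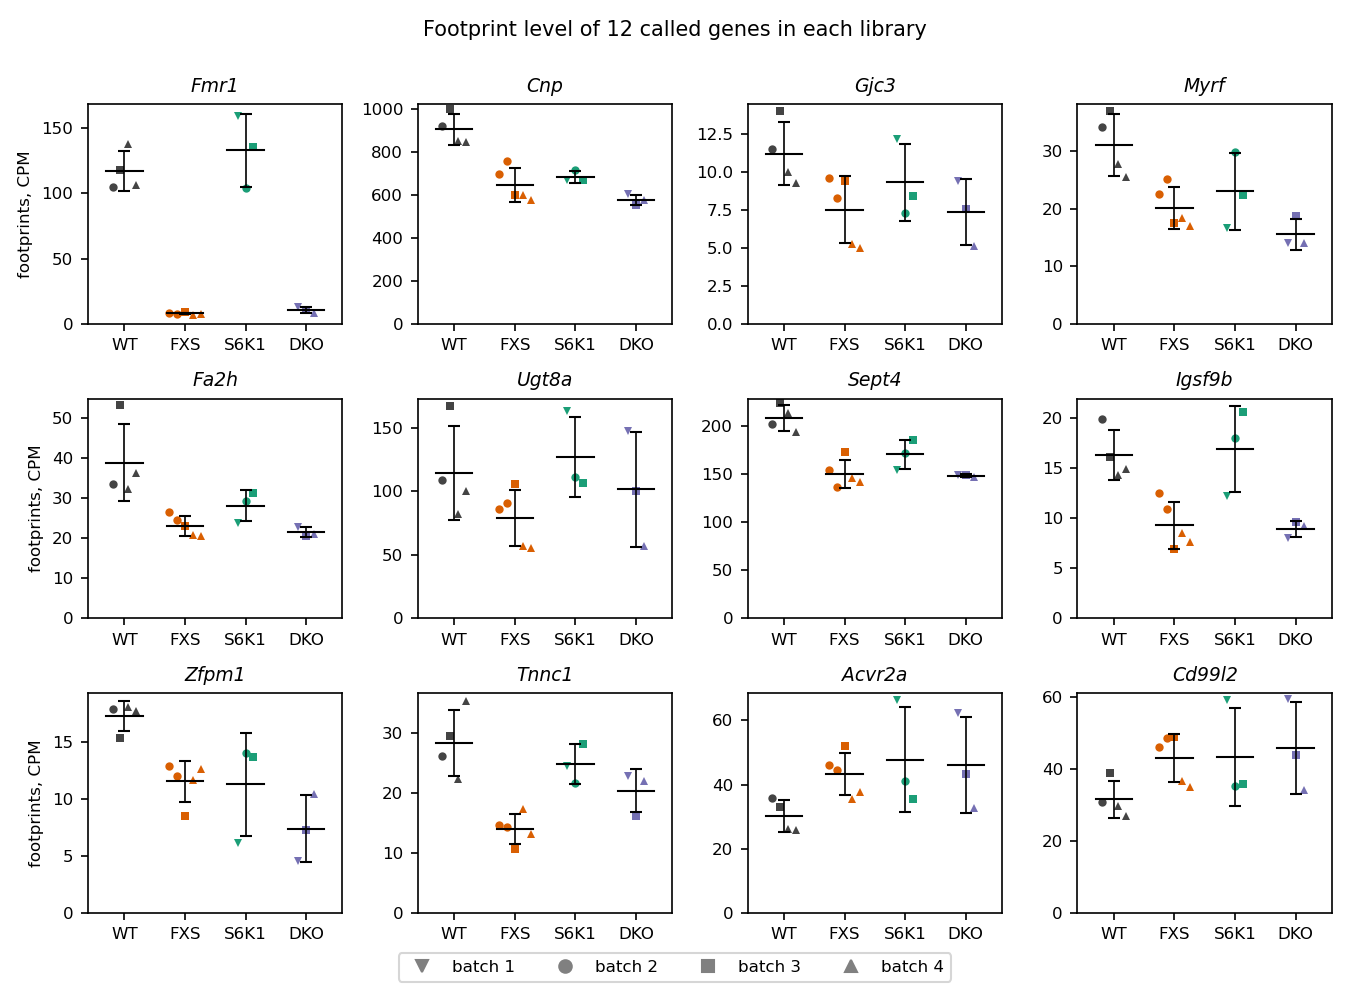
Footprint level in CPM (linear axis from 0) of 12 called genes in all 15 footprint libraries, by genotype, with marker shape for the batch and bars for the mean ± SD. For Cnp, Myrf, Fa2h, Sept4, Igsf9b, Zfpm1 and Tnnc1 all 5 FXS libraries lie under all 4 WT libraries. FXS replicates 1 and 3 lie inside the WT range for Gjc3, and FXS replicates 1 to 3 do for Ugt8a (batches 2 and 3).

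The stretches upstream of 3 of these genes are shown for their sequence context and for motifs of the factors named above. RefSeq's promoter table for GRCm38.p6 had entries for 16 of the 23 called genes and for 4 of the 8 oligodendrocyte genes. The windows of Cnp, Ugt8a and Gjc3 are printed 5′ to 3′ on the gene's strand, up to the first base of the gene's RefSeq record (30 bases of the Cnp and Ugt8a windows lie inside that record and were left off, since the table's start lies inside it), with matches to ACAAAG (bound by SOX factors) and CTGGNAC (bound by MYRF) on either strand in capitals.
Cnp, chr11:100574689-100574908, plus strand: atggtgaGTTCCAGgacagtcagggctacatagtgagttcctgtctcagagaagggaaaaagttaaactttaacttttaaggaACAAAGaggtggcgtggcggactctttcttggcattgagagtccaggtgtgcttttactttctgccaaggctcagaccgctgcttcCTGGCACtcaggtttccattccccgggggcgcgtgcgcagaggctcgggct
Ugt8a, chr3:125938683-125938902, minus strand: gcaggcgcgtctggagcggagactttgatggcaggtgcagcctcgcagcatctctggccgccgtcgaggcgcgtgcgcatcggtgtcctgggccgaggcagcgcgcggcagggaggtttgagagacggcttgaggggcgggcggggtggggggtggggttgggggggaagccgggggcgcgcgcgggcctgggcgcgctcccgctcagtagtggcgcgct
Gjc3, chr5:137963099-137963348, minus strand: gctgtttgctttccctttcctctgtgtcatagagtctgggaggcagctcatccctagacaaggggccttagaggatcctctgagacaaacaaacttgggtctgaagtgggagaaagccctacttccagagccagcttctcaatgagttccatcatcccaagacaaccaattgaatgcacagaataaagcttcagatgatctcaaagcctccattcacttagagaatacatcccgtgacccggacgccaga
Cnp had 1 match to ACAAAG, and 2 to CTGGNAC, the first of them on the minus strand. They lie 167 bases (ACAAAG) and 243 and 81 bases (CTGGNAC) before the table's start, which is 30 bases past the end of the printed stretch. The windows of Ugt8a and Gjc3 held neither. Sept4 has 4 starts in the table and is not printed, and 1 of its 4 windows held 2 matches to ACAAAG and none to CTGGNAC. Over windows of 250 bases before 32851 starts in the table, 16.5% held ACAAAG and 16.1% held CTGGNAC. The 2 motifs share no overlap in Cnp, and a match is a description of the letters only.

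Batches gave the same direction for all 23 called genes: each differed with the same sign within batches 2, 3 and 4. The 23 were called on these same libraries with batch in the model, so a shared sign was largely built in. Cnp differed by -0.34, -0.74 and -0.53 on the log2 scale in these batches, Myrf by -0.52, -1.08 and -0.59 and Fa2h by -0.40, -1.20 and -0.73. Batches 2 and 3 hold 1 WT library each, so these differences have no test of their own. Of the 23 genes, 16 had FXS libraries that were all below all WT libraries, as did 151 of all 13953 genes tested (1.08%). The 23 were called on these libraries, so a high count was largely built in. Neither of the 2 higher genes had libraries that were all above, an arrangement seen in 92 genes (0.659%). The sheath list as a whole had median differences of -0.14, -0.61 and -0.63 in batches 2, 3 and 4, with 15, 18 and 18 of 18 genes lower. Calls depended on single libraries: 1 gene was called without FXS replicate 5, 4 without FXS replicate 4, 6 without WT replicate 4, 7 without FXS replicate 3, 10 without FXS replicate 1, 12 without WT replicate 3 and 39 without WT replicate 1. Cnp, Igsf9b and Myrf kept the call with each library left out except FXS replicate 5, where the adjusted p was 0.0731 for Cnp and 0.0776 for the other 2. No call but that of Fmr1 held without the batch term.

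**Figure D3:**
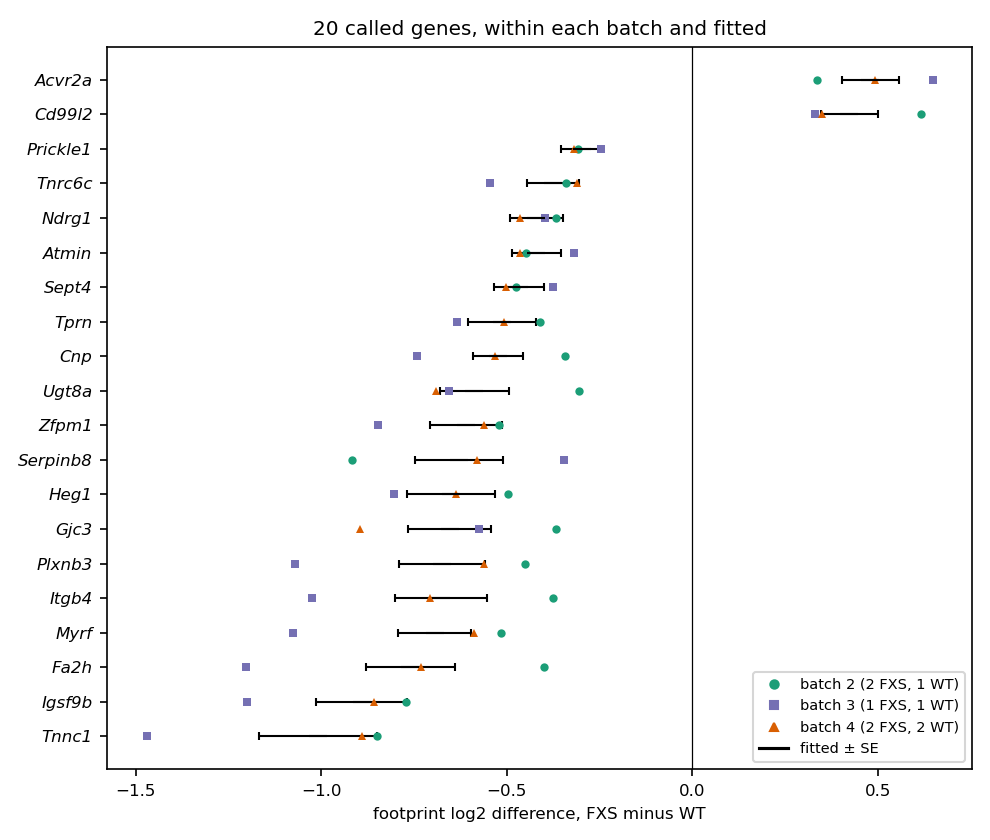
Footprint log2 difference, FXS minus WT, of 20 called genes, with the difference within each of batches 2, 3 and 4 as colored markers and the fitted value ± SE as a black bar. Every marker of the 18 lower genes lies left of 0 and every marker of Acvr2a and Cd99l2 lies right of it.

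Among the called genes outside the oligodendrocyte lists and besides Fmr1, Igsf9b had the smallest p. It encodes an adhesion protein of inhibitory synapses and is also on the list of FMRP targets. Igsf9b footprints (chr9:27299104-27357549) were 19.9, 16.03, 14.3 and 14.9 CPM in WT and 12.4, 10.9, 6.93, 8.47 and 7.56 CPM in FXS. The groups did not overlap, and the change was -0.89 ± 0.123 (adjusted p 0.0127), a fall of 46.1%. Its mRNA changed by 0.09 ± 0.152 (adjusted p 0.852). Of 15 genes for adhesion at inhibitory synapses, 14 were lower, with a median of -0.17 and Igsf9b as the 1 call. The median was -0.02 without WT replicate 2 (8 of 15 lower), -0.07 without FXS replicate 3 and without the batch term, and within batches 2, 3 and 4 it was -0.02, -0.33 and 0.00. Magi2, a scaffold of these synapses, stood at -0.25 ± 0.0737 (adjusted p 0.249) and Nrxn3, a presynaptic neurexin, at -0.19 ± 0.0908 (adjusted p 0.502). Receptors for GABA itself were spread around 0, with 6 of 12 lower, a median of -0.00 and 0 calls.

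Tnnc1, the troponin C of slow muscle, had the largest change among called genes besides Fmr1. Its footprints were 26.3, 29.5, 22.3 and 35.5 CPM in WT and 14.7, 14.4, 10.6, 17.4 and 13.2 CPM in FXS, and every FXS library was lower. Tnnc1 fell by 50.3% (log2 fold change -1.01 ± 0.159, adjusted p 0.0229), and its mRNA was called as well, at -0.80 ± 0.123 (adjusted p 0.00776). Zfpm1, a cofactor of GATA factors, had 17.9, 15.3, 18.1 and 17.7 CPM in WT and 12.9, 12.01, 8.48, 11.6 and 12.6 CPM in FXS, a change of -0.61 ± 0.0976 (adjusted p 0.0208). Atmin, a zinc finger protein of the DNA damage response, had 83.6, 79.1, 85.2 and 83.1 CPM in WT and 64.98, 57.7, 63.4, 61.6 and 60.3 CPM in FXS, and changed by -0.42 ± 0.0656 (adjusted p 0.0208). Tnrc6c, a scaffold of microRNA silencing, fell by 0.38, with 44.8, 41.3, 47.2 and 49.9 CPM in WT and 36.6, 34.2, 28.3, 37.1 and 41.2 CPM in FXS, so that FXS replicate 5 came just under WT replicate 2.

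Other lower genes, which are outside the oligodendrocyte lists, have varied described functions. Which cells their footprints came from was not tested. Prickle1, a planar cell polarity protein linked to epilepsy, changed least, from 164 ± 8.71 CPM (SD, n = 4) to 133 ± 8.97 CPM (SD, n = 5), or -0.30 ± 0.0551. Plxnb3, a semaphorin receptor, changed by -0.67 ± 0.116, from 24.1 ± 5.00 CPM (SD, n = 4) to 15.5 ± 1.84 CPM (SD, n = 5). Itgb4, the integrin beta 4 chain, changed by -0.68 ± 0.124, and Heg1, a cell junction receptor of vessels and heart, by -0.65 ± 0.119. Tprn, a protein of hair cell stereocilia, changed by -0.51 ± 0.0919 and Serpinb8, a protease inhibitor, by -0.63 ± 0.117. Among these 6 genes the groups overlapped for Heg1 and not for the other 5.

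Footprints rose in FXS for Acvr2a and Cd99l2. Acvr2a, a receptor for activins, had 35.9, 33.1, 26.3 and 25.8 CPM in WT and 46.3, 44.5, 51.95, 35.6 and 37.8 CPM in FXS, a rise of 39.5% (log2 fold change 0.48 ± 0.0772, adjusted p 0.0208). FXS replicate 4 lay just under WT replicate 1, and the other 4 FXS libraries were above all WT libraries. Cd99l2, an adhesion protein of leukocytes and endothelium, had 30.9, 38.9, 29.6 and 26.8 CPM in WT and 46.04, 48.7, 48.9, 36.7 and 35.1 CPM in FXS, and rose by 34.1% (log2 fold change 0.42 ± 0.0775, adjusted p 0.0461). FXS replicates 4 and 5 lay below WT replicate 2. Its mRNA rose too (0.43 ± 0.0867, adjusted p 0.0420), and the footprint and mRNA changes differed by -0.01. Cd99l2 (chrX:71420060-71492866) and Plxnb3 (chrX:73756556-73772510) lie within 6 Mb of Fmr1 on the X chromosome. In that window 59 genes were tested, 2 were called, where 0.165% of all genes were, and 29 were lower, with a median of 0.00. The labels do not say which strain the Fmr1 allele arose in, and whether linked sequence plays a part was not tested.

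Marker lists of other cortical cell types had medians nearer to 0. Of 18 astrocyte markers 7 were lower and 11 higher, with a median of 0.03, 0 calls and 1 gene, the fatty acid binder Fabp7, at an unadjusted p under 0.05 (0.84 ± 0.340, adjusted p 0.460). Microglial markers were higher in 14 of 18 cases (median 0.10), and endothelial markers were lower in 8 of 15 (median -0.02), each with 0 calls and with 1 and 0 genes at an unadjusted p under 0.05. These 3 medians changed sign with single libraries: without WT replicate 1 the astrocyte median was -0.04 and the microglial median -0.14 (15 of 18 lower), and without FXS replicate 4 the endothelial median was 0.12. Within batches 2, 3 and 4 the microglial medians were 0.63, -0.06 and -0.14. Excitatory neuron markers were lower in 12 of 15, with a median of -0.12, 0 calls and 2 genes at an unadjusted p under 0.05, and without WT replicate 2 the median was -0.04. Tbr1, a transcription factor of deep-layer neurons, stood at -0.27 ± 0.0906 (adjusted p 0.322). Inhibitory neuron markers were lower in 6 of 16 with a median of 0.05, or -0.05 without FXS replicate 5, and the smallest p was that of Pvalb, the parvalbumin of fast-spiking interneurons, at -0.38 ± 0.0841 (adjusted p 0.111). Pvalb mRNA was called, at -0.60 ± 0.0973 (adjusted p 0.00927).

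Markers of tissue next to the cortex differed widely between libraries of 1 genotype. Striatal markers summed to 1006, 294, 494 and 516 CPM in WT and 779, 674, 285, 407 and 588 CPM in FXS, with a -0.05 median that was 0.21 without WT replicate 1 and -0.25 without WT replicate 2. The batch 2 libraries held the most and the batch 3 libraries the least in both genotypes. Choroid plexus markers, 6 of 10 tested, were higher in all 6 cases (median 0.63) and none had an unadjusted p under 0.05. They summed to 19.4, 19.2, 17.7 and 43.4 CPM in WT and 42.4, 131, 27.8, 11.1 and 64.8 CPM in FXS, and FXS replicate 2 was the highest. Without FXS replicate 5 the choroid plexus median was 0.19 with 4 of 6 higher. Mural and meningeal markers were higher in 10 of 13 cases with a median of 0.23, or 0.03 without WT replicate 1 (6 of 13 lower). They included Dcn, the matrix proteoglycan decorin, at 1.23 ± 0.378 (adjusted p 0.313). Whether the amount of white matter dissected with the cortex differed was not tested, as no list here separates white matter from the oligodendrocytes themselves.

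**Figure D4:**
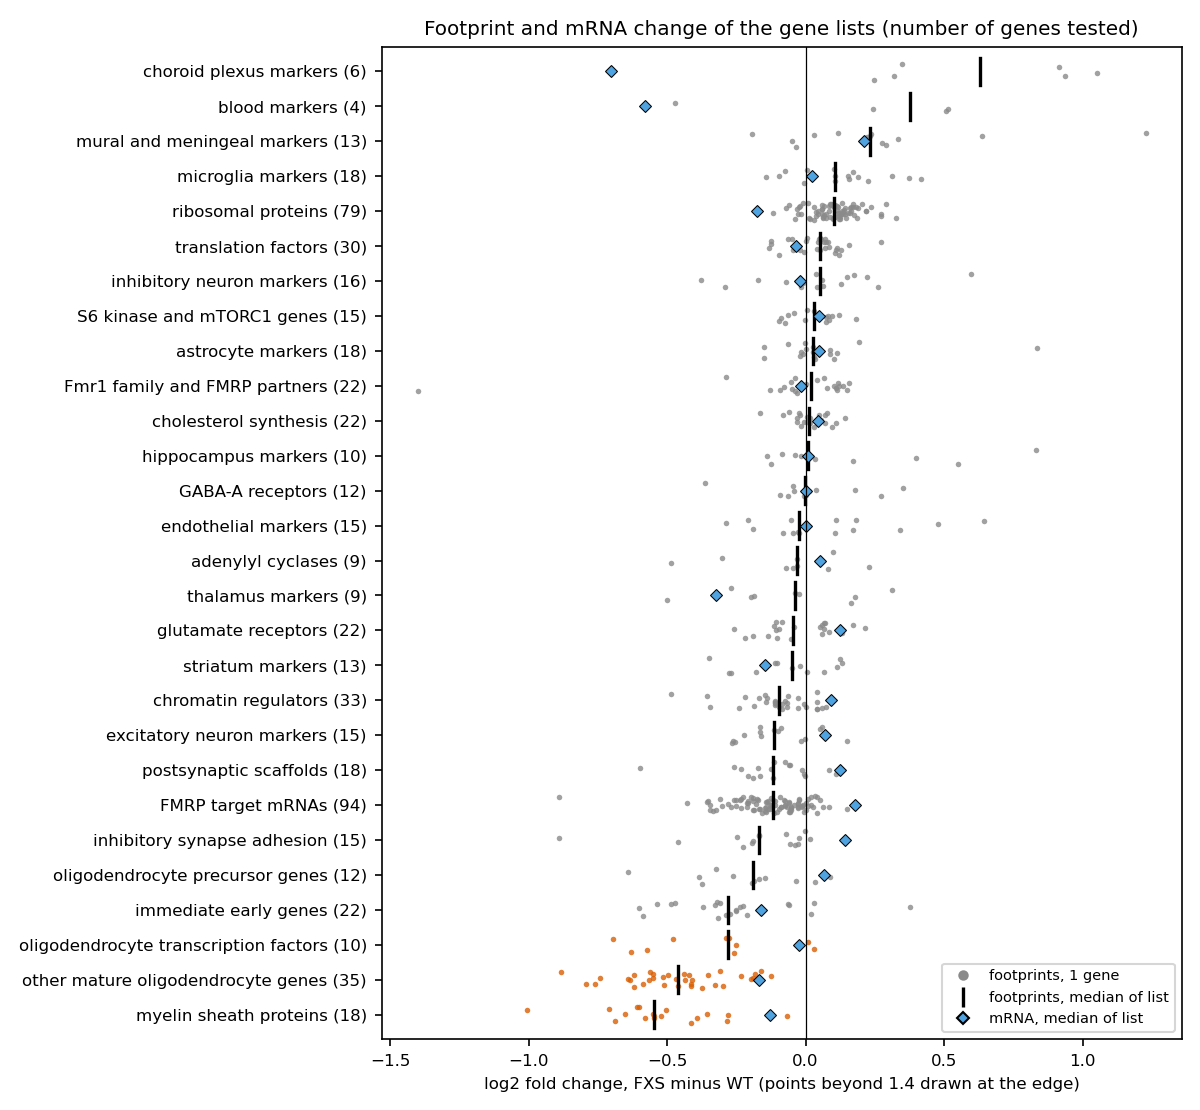
Footprint log2 fold change, FXS minus WT, of every tested gene of the 28 lists (points), with the list's median as a black bar and the median mRNA change of the same genes as a blue diamond. The 3 oligodendrocyte lists (orange) have the lowest footprint medians, from -0.55 to -0.28, beside immediate early genes at -0.28.

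Genes whose mRNAs FMRP is known to bind were mostly lower, by small amounts. Of 94 listed targets, 80 were lower, with a median of -0.12. Of these, 22 had an unadjusted p under 0.05 (5.78% of all genes on the lower side), but only Igsf9b was called. Itpr1, an intracellular calcium channel, had 698, 619, 560.0 and 584 CPM in WT and 573, 446, 488, 488 and 432 CPM in FXS, a change of -0.36 ± 0.0789 (adjusted p 0.107). Unc13a, which primes synaptic vesicles, stood at -0.32 ± 0.0929 (adjusted p 0.231), and Adcy1, a calcium-stimulated adenylyl cyclase, at -0.30 ± 0.0929 (adjusted p 0.268). Targets near 0 included Dlg4, the scaffold PSD-95, at -0.00, and Grm5, the glutamate receptor mGluR5, at 0.08. The shift was not the same in each batch: the list's median difference was -0.20 in batch 2, -0.23 in batch 3 and 0.00 in batch 4, where 47 of 94 were lower. WT replicate 1 had the most footprints on these genes, 54613 CPM in all against 38471 to 41214 in the other WT libraries and 36381 to 46968 in FXS. Without it the median was -0.07 and 61 of 94 were lower.

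Groups that share genes with this list had medians of similar size. Postsynaptic scaffolds were lower in 16 of 18 cases (median -0.12), and chromatin regulators in 26 of 33 (median -0.10), each with 0 calls and with 3 and 5 genes at an unadjusted p under 0.05. Without WT replicate 1 the scaffold median was -0.06 with 10 of 18 lower, and that of the chromatin regulators -0.03 with 18 of 33 lower. Without WT replicate 3 the median of the chromatin regulators was -0.06. Glutamate receptors were lower in 12 of 22, with a median of -0.05 that was 0.07 without WT replicate 2, and 0 calls. Immediate early genes, which neurons induce on firing, were lower in 19 of 22 with a median of -0.28, with 0 calls and 2 genes at an unadjusted p under 0.05. WT replicate 4 summed to 5460 CPM over this list, against 2529 to 2957 in the other WT libraries and 1913 to 2949 in FXS, so the groups did not separate. Without WT replicate 4 the list's median was -0.13 with 14 of 22 lower, and without batch 4 it was -0.05. Npas4, an activity-induced transcription factor, stood at -0.60 ± 0.305 (adjusted p 0.562). Ribosomal proteins were higher in 69 of 79 cases with a median of 0.10. Of these, 14 had an unadjusted p under 0.05 (4.09% of all genes on the higher side), with 0 calls. Their median was 0.06 without WT replicate 2 or FXS replicate 3. Within batch 4 it was 0.03 and 31 of 79 were lower. Translation factors had a median of 0.05 (0.00 without WT replicate 2 or FXS replicate 3), genes of S6 kinase and mTORC1 signalling 0.03 and cholesterol synthesis genes 0.01.

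Messenger RNA, measured in other libraries and batches, had medians nearer to 0 than footprints in the oligodendrocyte lists. Over 14215 genes, 22 were called in mRNA (0.155%), among them 3 of the 23 footprint genes, Fmr1, Tnnc1 and Cd99l2. The mRNA of the sheath list had a median of -0.13 with 17 of 18 lower, and 2 of these had an unadjusted p under 0.05, where the share of all genes was 5.95%. Of the second list, 31 of 35 were lower in mRNA, 11 of them at an unadjusted p under 0.05. Over the 3 lists 54 of 63 were lower in mRNA, 14 of them at that level, and 1 was higher at that level. For the 3 lists together the mRNA median was -0.12 and the footprint median -0.48. Summed sheath mRNA was 2395, 3841, 3403 and 3518 CPM in WT and 2223, 2967, 3179 and 3515 CPM in FXS. The groups overlapped, but within every mRNA batch the FXS library lay below the WT library. In the last batch the gap was slight (3515 against 3518 CPM). In the 8 called oligodendrocyte genes the mRNA change was between -0.29 (Ndrg1) and 0.00 (Myrf and Ugt8a). Cnp mRNA stood at -0.09 ± 0.0727 (adjusted p 0.644).

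The difference between the 2 changes, or the change in translational efficiency (TE), was tested in 1 model of all 31 libraries. It was called for 13 of 13654 genes (0.0952%), of which Fmr1, Igsf9b and Myrf are footprint genes. Of the 23 footprint genes, 19 had an unadjusted p under 0.05 in TE. That level was reached by 1052 of all genes on the lower side and 773 on the higher. The 23 were called on the footprint change, which TE contains, so a high count among them was largely built in. TE of Myrf changed by -0.70 ± 0.136 and that of Igsf9b by -0.99 ± 0.196, both at an adjusted p of 0.0497, and the TE count was 2 with RLE scaling and 1 without the batch term. TE of Cnp stood at -0.44 ± 0.1001 (adjusted p 0.0849). In the sheath list all 18 TE values were lower, 10 of them at an unadjusted p under 0.05, against 7.7% of all genes. FMRP targets had an mRNA median of 0.18, with 4 of 94 lower and 51 higher at an unadjusted p under 0.05 (6.77% of all genes), and a TE median of -0.30 with 92 lower. Ribosomal proteins had an mRNA median of -0.18, with 79 of 79 lower, and a TE median of 0.26. TE values contain the footprint and the mRNA change, so they are not separate support for either.

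**Figure D5:**
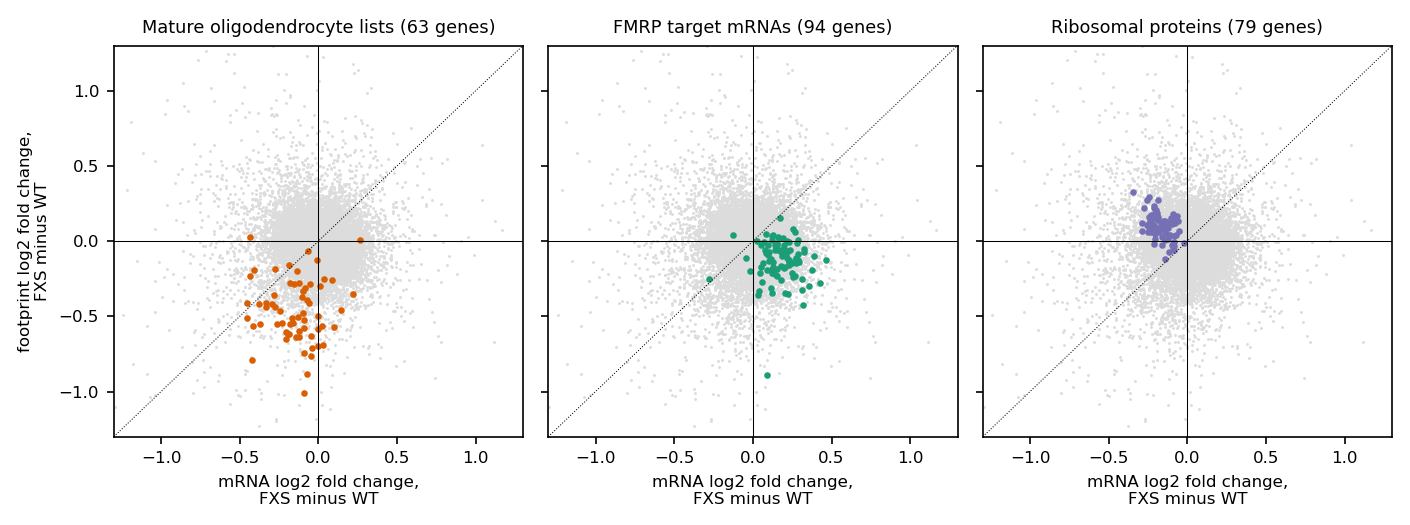
Footprint against mRNA log2 fold change, FXS minus WT, of single genes, with all genes in gray and 1 gene group in color per panel, and the dotted line where both changes are equal. The 63 oligodendrocyte genes lie low with mRNA changes around -0.12, 90 of the 94 FMRP targets lie right of 0 and 80 lie below it, and all 79 ribosomal proteins lie left of 0 and 69 lie above it.

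The loss of Fmr1 can also be read in mice that lack S6K1, by comparing DKO with S6K1 in the other 6 footprint libraries. Both contrasts come from 1 model and share its estimates of spread and batch, so they are not independent. In that contrast 1 gene was called (0.00717%), Fmr1 at -3.68 ± 0.129 (adjusted p 2.31e-10). All 23 genes had the same sign as in FXS against WT, and 13 had an unadjusted p under 0.05 in either direction. Over all genes tested, 622 reached that level on the lower side (4.46%) and 588 on the higher. Fmr1, which DKO mice lack, is among the 23 and the 13. How many of all genes kept their sign was not counted. Igsf9b stood at -0.76 ± 0.154, Tnrc6c at -0.51 ± 0.0888, Itgb4 at -0.72 ± 0.161, Zfpm1 at -0.61 ± 0.129 and Atmin at -0.34 ± 0.0827. The oligodendrocyte genes lay nearer to 0 here. Cnp stood at -0.17 ± 0.0838 (adjusted p 0.583) and Myrf at -0.37 ± 0.126 (adjusted p 0.502). Over the 3 lists the median was -0.19 with 60 of 63 lower. The test of the difference between both effects of Fmr1 loss called 0 genes with edgeR. Of 13953 genes, 428 had an unadjusted p under 0.05, Cnp and Prickle1 among them. That is a smaller share than chance alone gives at that level. For Cnp that difference, DKO minus S6K1 less FXS minus WT, was 0.35 ± 0.110 (adjusted p 0.9996).

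Against the same WT libraries, most oligodendrocyte genes were lower in S6K1 and DKO as well. These comparisons share their controls with FXS against WT. The median of the 3 lists was -0.42 in S6K1, with 58 of 63 lower, and -0.60 in DKO, with 61 of 63 lower, beside -0.48 in FXS. Cnp had 669, 717 and 670.1 CPM in S6K1 and 603, 555 and 575 CPM in DKO, so every library of these groups was below every WT library. Fa2h had 23.7, 29.4 and 31.2 CPM in S6K1 and 22.9, 20.5 and 21.1 CPM in DKO. Igsf9b differed from this pattern of levels, with 12.2, 17.97 and 20.5 CPM in S6K1, where 2 of 3 libraries lay above at least 3 of the 4 WT libraries, and 8.05, 9.59 and 9.18 CPM in DKO.

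The authors' deposited table for footprints of FXS against WT lists 12083 genes and calls 129 of them at an adjusted p under 0.05 (1.07%), 102 lower and 27 higher. All 23 genes above are among the 129 of the authors' deposited table, and the log2 fold changes of the 23 differ by at most 0.00434 between that table and the edgeR fit. That table makes the same comparison in the same series, so its calls are not separate support. Of the 3 oligodendrocyte lists, 62 genes are in the authors' deposited table, which calls 24 of them, all lower. Among genes of the other lists that edgeR did not call, the authors' deposited table calls the precursor gene Enpp6, Pvalb and the FMRP target Itpr1, all lower, and the ribosomal protein gene Rpl36a, which is higher. It calls 0 markers of astrocytes, microglia, endothelium or excitatory neurons in the authors' deposited values.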

How the data were processed

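Footprint and mRNA libraries were deposited as whole-number counts per gene symbol (20436 symbols), which the file names call counts over coding sequence. The submitters' processing notes name mm10, cutadapt 2.0, Bowtie2, TopHat2 and RSEM, with no role or order. The authors' deposited tables give log2 fold changes and p-values, and their model is not given in the sources used here. After filterByExpr on genotype, counts were scaled by TMM and tested with edgeR 4.0.16 (R 4.3.3), with batch and genotype as terms over all 15 footprint libraries. The 16 mRNA libraries were fitted the same way, and TE in 1 model with batch nested in assay. SE values come from the quasi-likelihood F, and within-batch differences from log2 CPM with a prior count of 2. RLE scaling, DESeq2 1.42.0 and limma 3.58.1 (voom) were among the alternatives, with no filter, no batch term, the 2 genotypes alone, and leaving out each library or batch. The scripts were tested on simulated counts. Named genes were Fmr1, Cnp, Rps6kb1, all called genes, up to 4 further genes per list by p, and up to 10 genes in each direction with the largest change (unadjusted p under 0.01, at least 10 CPM). Other list members are named as examples, picked after their values were seen. The members, the 28 gene lists and the tests were chosen with earlier results of these data known. Of the symbols, 20359 matched RefSeq. Among listed genes, 2 were missing from the counts, and some others did not pass the filter and were not tested. Single results of some further genes are not reported here.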

Additional observations from a re-analysis of the deposited data

Results flagged for a closer look

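Of 92 sets of 4 or 5 libraries of 1 genotype tested for the called genes, 6 had 1 library far from the rest by Dixon's criterion, which chance meets in about 1 set in 20. Zfpm1 footprints were low in WT replicate 2 (15.3 CPM, the others 17.7 to 18.1) and in FXS replicate 3 (8.48 CPM, the others 11.6 to 12.9), which are both of batch 3. Zfpm1 mRNA was high in WT replicate 4 (85.7 CPM, the others 53.8 to 59.2) and low in FXS replicate 1 (41.7 CPM, the others 58.1 to 60.7). Prickle1 mRNA was low in FXS replicate 1 (63.5 CPM, the others 79.7 to 82.6), and Tnrc6c mRNA was high in WT replicate 1 (107.2 CPM, the others 88.4 to 91.6). The 2 mRNA libraries numbered 1 share a batch, and in the same batch Prickle1 mRNA stood at 64.3 CPM in WT and Tnrc6c mRNA at 111 CPM in FXS.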

How the results depend on the processing

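The count of called footprint genes, 23, was 22 with RLE scaling, 114 with DESeq2 (all 23 among them), 13 with limma voom, 19 without the filter, 1 with no term for batch and 2 when only FXS and WT libraries were fitted. Leaving out batch 2, 3 or 4 gave 21, 14 and 1, and leaving out each library gave 1 to 39. All 23 genes kept their sign in these 18 models. For DKO against S6K1, DESeq2 called 21 genes and leaving out each library gave 1 to 3. The mRNA count of 22 was 42 with RLE scaling, 204 with DESeq2, 9 with limma voom, 35 without the filter, 2 with no term for batch, 446 when only FXS and WT libraries were fitted, and 2 to 86 with each library left out. The TE count of 13 was 2 with RLE scaling, 154 with DESeq2, 3 without the filter, 1 with no term for batch, 1 when only FXS and WT libraries were fitted, and 1 to 33 with each library left out. The cause of these differences was not tested. Computed after seeing the data, the same 18 models kept the median of the sheath list between -0.70 and -0.43. No paired analysis was possible by replicate number because the labels carry none. Batches of the labels hold FXS and WT libraries together, 1 of each in every mRNA batch, and that matching is in the model as its batch term, so the fits with no term for batch are the unmatched ones.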

Other observations

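Among genes with at least 10 CPM and an unadjusted p under 0.01, the largest uncalled rises in footprints of FXS were in genes of varied function. Nnat, the imprinted gene of neuronatin, stood at 0.73 ± 0.168 (adjusted p 0.144), with 47.4, 22.9, 32.5 and 48.6 CPM in WT and 62.7, 88.8, 42.6, 51.1 and 77.6 CPM in FXS. Nr2f2, a nuclear receptor of interneurons of caudal origin, stood at 0.71 ± 0.168 (adjusted p 0.144), with 23.5, 10.01, 17.4 and 19.4 CPM in WT and 30.8, 26.03, 26.5, 25.7 and 32.5 CPM in FXS. Each of the FXS libraries was above each of the WT libraries for Nr2f2. Cpne7, a calcium-binding copine, stood at 0.65 ± 0.147 (adjusted p 0.138), and Htr2c, a serotonin receptor, at 0.47 ± 0.119 (adjusted p 0.163). The mRNA changes were 0.00 for Nnat, -0.07 for Nr2f2, -0.01 for Cpne7 and 0.19 for Htr2c. On the lower side, Mcam, an adhesion molecule of pericytes and endothelium, stood at -0.82 ± 0.155 (adjusted p 0.0592) and Ttyh2, a membrane protein of the tweety family, at -0.71 ± 0.137 (adjusted p 0.0592).

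Among lists not described above, the 4 that follow had 0 genes called by edgeR, with 3 at an unadjusted p under 0.05. Adenylyl cyclases had a median log2 fold change of -0.03 over 9 genes, hippocampal markers 0.01 over 10, thalamic markers -0.04 over 9 and blood markers 0.38 over 4. Pvalb footprints were 70.7, 97.5, 78.9 and 84.2 CPM in WT and 50.7, 53.8, 83.02, 68.6 and 54.2 CPM in FXS.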
